A study of Mus musculus with 4 samples.

Results

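Liver makes fatty acids anew from sugar, and 10 genes that encode enzymes and regulators of this pathway, de novo lipogenesis, were followed in male and female mouse liver: Slc25a1, Acly, Me1, Acaca, Acacb, Fasn, Srebf1, Mlxipl, Thrsp and Pnpla3. The rule names them by symbol and uses no measured value, though they were chosen with earlier results of these data known. Each of the 10 was found as a single entry among 21827 gene entries. Untreated male CD-1 mice and untreated female CD-1 mice, an outbred stock, were compared at 8 weeks of age. For each sex, RNA of 12 livers was sequenced as 2 pools, each of 6 livers, which makes 4 strand-specific libraries of poly-A RNA in all. The deposited table holds 1 level per gene and sex, so values of single pools and single mice are not seen, and no spread between pools could be computed here. The sources used here do not say in what feeding state or at what hour the livers were taken. The comparison asks how liver expression of a gene depends on sex.

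In lipogenesis, citrate leaves the mitochondria and is split in the cytosol into acetyl-CoA, which acetyl-CoA carboxylase turns into malonyl-CoA and fatty acid synthase joins into palmitate at the cost of NADPH. The pathway is most active in liver after a carbohydrate-rich meal. Its genes are switched on by SREBP-1c, a factor released from the endoplasmic reticulum membrane in answer to insulin, and by ChREBP, a factor that answers to sugar metabolites. In bulk tissue, fewer cells of a type and less RNA per cell cannot be told apart.

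Most of the pathway did not differ detectably between the sexes, and the 3 genes that did went in both directions. Me1 and Thrsp were higher in male liver, by 1.68-fold and 1.52-fold, and Pnpla3 was higher in female liver, by 1.84-fold, according to the authors' deposited table. The main carbon-chain enzymes, Acly, Acaca, Acacb and Fasn, and both transcription factor genes, Srebf1 and Mlxipl, did not pass the authors' test at an adjusted p under 0.05. The 3 called genes make up 30% of the 10, set beside 17.4% of the 13762 genes that could be compared in all and 17.2% of the 9737 liver-expressed ones (log2 RPKM 1 or more in at least 1 of the sexes). By direction, 2 of 10 were male-higher, where 7.21% of all compared genes were, and 1 of 10 was female-higher, where 10.2% were. With 10 genes these shares are a description and were not tested. The median of the authors' normalized log2 ratio, male over female, was 0.07 over the 10 genes, -0.024 over all compared genes and -0.004 over the liver-expressed ones.

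**Figure D1:**
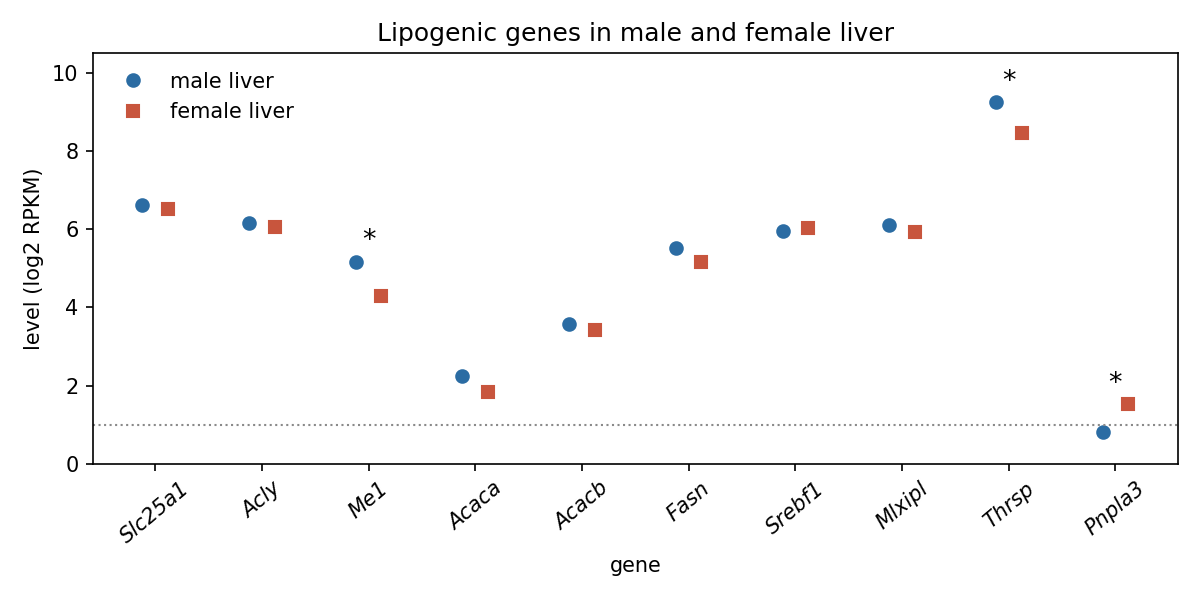
Level of each gene in male liver (circles) and female liver (squares) as log2 RPKM, 1 deposited value per gene and sex without error bars. Asterisks mark the 3 genes with an adjusted p under 0.05, and the dotted line marks log2 RPKM 1, the bound for liver-expressed genes. Thrsp stands highest at 9.24 in male and 8.45 in female liver, and Pnpla3 lowest at 0.82 in male and 1.52 in female liver.

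Carbon and reducing power for the pathway come through Slc25a1, Acly and Me1. Slc25a1 (chr16:17925304-17928312, mm9, minus strand) encodes the carrier that exports citrate from mitochondria. Its level was 98.6 RPKM in male and 92.1 RPKM in female liver (RPKM, reads scaled for transcript length and library depth). Acly, which encodes the cytosolic enzyme that splits citrate into acetyl-CoA and oxaloacetate (chr11:100337666-100389314, mm9, minus strand), had 71.9 RPKM in male and 66.3 RPKM in female liver. For Slc25a1 the authors' deposited table gives 1.05-fold (adjusted p = 0.714), and for Acly 1.01-fold (adjusted p = 0.959). Neither step of this citrate route to cytosolic acetyl-CoA was called different between the sexes.

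Me1 encodes cytosolic malic enzyme, which turns malate into pyruvate and yields NADPH for fatty acid synthesis (chr9:86474970-86589947, mm9, minus strand). It had 35.8 RPKM in male and 19.5 RPKM in female liver, and was 1.68-fold higher in males (adjusted p = 0.000171, authors' deposited table). By rank among the liver-expressed genes it stood above 83.2% of them in male and above 70.9% in female liver. At its 5′ end the Me1 entry shares 473 bases with A330041J22Rik on the opposite strand, which had -1.86 log2 RPKM in male and 0.33 log2 RPKM in female liver and was in a single sex at the floor of the scale, the level taken here to stand for 1 read. The sources used here do not state if counting was by strand, so reads from those bases cannot be assigned.

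The committed step belongs to a pair of acetyl-CoA carboxylases. Acaca encodes the cytosolic form, ACC1, whose malonyl-CoA feeds fatty acid synthase (chr11:84008940-84215153, mm9, plus strand). Its level was low, 4.72 RPKM in male and 3.59 RPKM in female liver, and the difference of 1.22-fold toward males was not called (adjusted p = 0.20, authors' deposited table). Acacb encodes ACC2, tied to the mitochondrial outer membrane, whose malonyl-CoA restrains fatty acid import for oxidation (chr5:114615527-114700767, mm9, plus strand). It had 12.0 RPKM in male and 10.7 RPKM in female liver, with 1.02-fold between the sexes (adjusted p = 0.928) per the authors' deposited table. Per length, Acacb stood 2.55 times as high as Acaca in male and 2.99 times as high in female liver.

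Fasn encodes fatty acid synthase, the multifunctional enzyme that builds palmitate. It had 46.0 RPKM in male and 35.9 RPKM in female liver, or 9.74 and 10.01 times the Acaca level of the same sex. The authors' deposited table lists a male-over-female fold of 1.15 with an adjusted p of 0.308. Its entry rests on a cDNA clone rather than a curated transcript and spans 14713 bases (chr11:120670780-120685492, mm9, minus strand), so the level covers the bases of that entry alone.

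Among the regulators, Srebf1 encodes SREBP-1, whose 1a and 1c forms start at different first exons and share 1 entry here (chr11:60012591-60034106, mm9, minus strand). Its level was 62.0 RPKM in male and 65.8 RPKM in female liver. Its log2 ratio of -0.205, or 1.15-fold toward females (adjusted p = 0.276, authors' deposited table), was the only negative one besides that of Pnpla3. The last 107 bases of Srebf1 overlap Rai1 on the opposite strand, which had 1.98 log2 RPKM in male and 1.64 log2 RPKM in female liver. Mlxipl, which encodes ChREBP (chr5:135582761-135614252, mm9, plus strand), had 68.3 RPKM in male and 60.9 RPKM in female liver and a fold of 1.04 (adjusted p = 0.751, authors' deposited table). The RNA of the insulin-driven factor and that of the sugar-driven factor were therefore of similar level, above 90.3% and 91.1% of liver-expressed genes in male liver and above 91.1% and 90.3% in female liver.

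Thrsp encodes Spot 14, a small acidic protein known as a thyroid hormone target that promotes lipogenesis (chr7:104561467-104566020, mm9, minus strand). It was the most abundant of the 10, with 604 RPKM in male and 351 RPKM in female liver, which placed it at rank 93 of the liver-expressed entries in males and rank 155 in females. The 1.52-fold difference toward males carried an adjusted p of 0.00133 in the authors' deposited table. Its level was 128 times that of Acaca in male liver and 97.8 times in female liver.

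Pnpla3 encodes a lipid droplet protein with patatin-like lipase domain, a SREBP-1c target whose human counterpart is known for a link to fatty liver (chr15:83998246-84019951, mm9, plus strand). It was the least abundant of the 10, at 1.76 RPKM in male and 2.87 RPKM in female liver, and the only one with log2 RPKM under 1 in either sex. Female liver had 1.84-fold more (adjusted p = 0.000159, authors' deposited table). If the floor of the scale is taken as 1 read, these levels stand for about 19.8 reads per kilobase in male and 42.2 in female liver, against 6787 and 5161 for Thrsp. Reads per kilobase were fewest for Pnpla3 among the 10. In male liver Me1 stood at 20.3 times the Pnpla3 level and in female liver at 6.80 times.

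**Figure D2:**
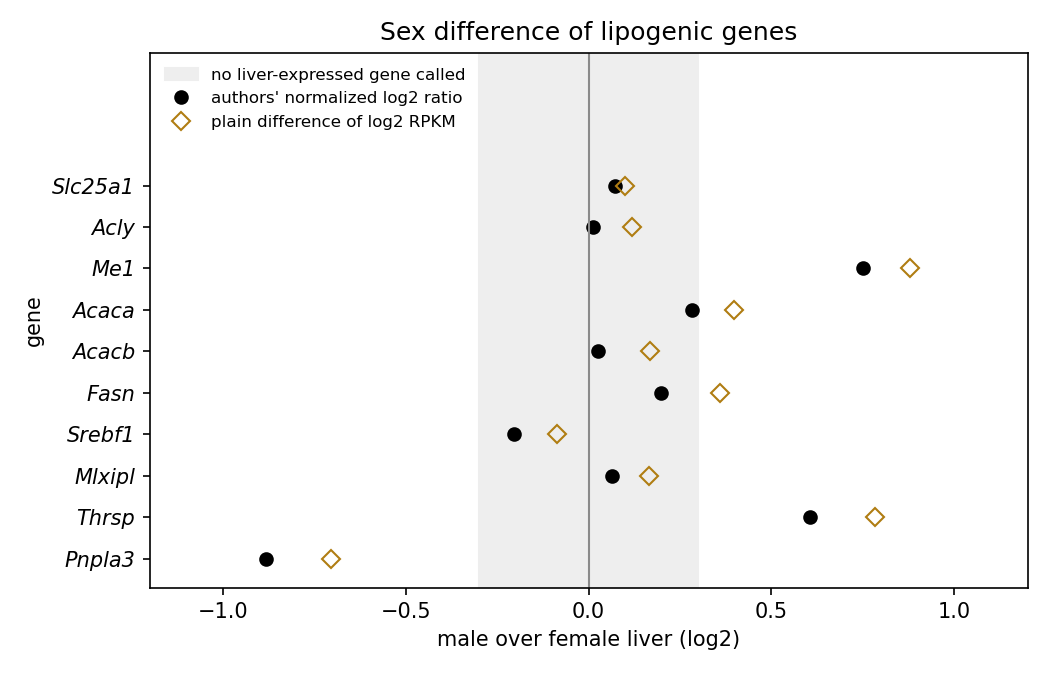
Sex difference of each gene on the log2 scale, male over female: filled circles show the authors' normalized ratio and open diamonds the plain difference of the 2 log2 RPKM values. The grey band from -0.3 to 0.3 held no called gene among 6447 liver-expressed genes; 7 of the 10 circles lie inside it, Me1 and Thrsp to its right and Pnpla3 to its left.

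The 7 genes that were not called had normalized log2 ratios between -0.205 and 0.284 and adjusted p-values between 0.20 and 0.959 in the authors' deposited table. The size of difference that this test could call is read from the whole table. The smallest ratio called in either direction among all compared genes was 0.37 on the log2 scale, and none of the 6447 liver-expressed genes with a ratio within 0.3 of zero was called. Of 1648 liver-expressed genes with a ratio between 0.3 and 0.5, 19.2% were called, and of 701 between 0.5 and 0.7, the range of Thrsp, 71.6%. Between 0.7 and 1, the range of Me1 and Pnpla3, 86.6% of 464 genes were called. A ratio such as that of Acaca, 0.28, or Fasn, 0.20, was thus of a size not called for any compared gene, which is not the same as no difference.

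The bases before the start sites of the 3 called genes, and of Fasn as the central enzyme that was not called, are shown to set the male-higher Me1 and Thrsp beside the others. They are the 250 bases before the annotated start in RefSeq, build GRCm38.p6, written 5′ to 3′ on the gene's strand. Capitals mark matches, on either strand, to the CCAAT box (CCAAT), the GC box (GGGCGG), the E-box (CACGTG), the TATA box (TATAAA) and a sterol response element (TCACNCCAC).
Me1 (chr9:86695915-86696164, minus strand): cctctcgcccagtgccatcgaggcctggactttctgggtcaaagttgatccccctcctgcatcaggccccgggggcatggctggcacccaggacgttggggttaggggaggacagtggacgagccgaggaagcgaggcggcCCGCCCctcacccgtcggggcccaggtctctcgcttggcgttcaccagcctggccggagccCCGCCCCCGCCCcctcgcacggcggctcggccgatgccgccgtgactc
Thrsp (chr7:97417551-97417800, minus strand): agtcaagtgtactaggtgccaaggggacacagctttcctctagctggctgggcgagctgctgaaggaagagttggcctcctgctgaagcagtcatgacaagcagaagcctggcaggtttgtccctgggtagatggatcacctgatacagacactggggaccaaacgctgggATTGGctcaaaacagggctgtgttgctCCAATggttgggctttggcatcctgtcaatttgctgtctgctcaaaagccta
Pnpla3 (chr15:84167566-84167815, plus strand): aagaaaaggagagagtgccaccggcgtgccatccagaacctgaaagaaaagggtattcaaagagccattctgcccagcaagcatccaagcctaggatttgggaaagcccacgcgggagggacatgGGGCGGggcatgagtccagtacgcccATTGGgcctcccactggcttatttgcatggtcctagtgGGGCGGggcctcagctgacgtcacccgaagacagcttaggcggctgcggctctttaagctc
Fasn (chr11:120824548-120824797, minus strand): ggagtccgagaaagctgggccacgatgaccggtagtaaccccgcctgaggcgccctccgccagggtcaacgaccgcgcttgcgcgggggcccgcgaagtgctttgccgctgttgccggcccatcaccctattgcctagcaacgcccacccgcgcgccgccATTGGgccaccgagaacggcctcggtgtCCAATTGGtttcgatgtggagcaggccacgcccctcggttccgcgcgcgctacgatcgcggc

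Me1 and Thrsp, the male-higher pair, did not share a motif in the windows shown. Me1 held 3 GC boxes, at 109, 48 and 42 bases before its start, and no CCAAT box; the other Me1 window, not shown, held a CCAAT box 208 bases before its start. Thrsp held 2 CCAAT boxes, at 79 and 52 bases, and no GC box. Pnpla3 held 2 GC boxes and 1 CCAAT box, and Fasn 3 CCAAT boxes, of which the pair starting 62 and 59 bases before the start overlaps. Among all 32851 RefSeq windows of the same length, 33.8% hold a CCAAT box, 32.7% a GC box, 12.4% a TATA box, 6.02% an E-box and 1.05% the sterol response element. Over the 14 windows of the 10 genes (Me1 and Mlxipl have 2 and Srebf1 has 3), 9 held a CCAAT box, 7 a GC box, 2 an E-box, 1 a TATA box and 1 the sterol response element. These counts were not tested, and the windows were not matched for base composition. GC content ran from 39.2% (Acaca) to 72% (Me1, the window shown) over the 14, beside a median of 52.4% over all windows. The sterol response element lies 136 bases before one of the Mlxipl starts. The E-boxes lie in the other Mlxipl window and in that of Slc25a1. A match of letters is not a bound site, and windows without one say nothing of sites farther away. The Me1 window shown starts within 39 bases of the transcript behind its entry, that of Pnpla3 within 21 bases and that of Thrsp within 180 bases, and for Fasn this could not be checked.

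The rest of the pathway was described with 8 lists of further genes. Of 157 genes listed, 146 were found, Mpc1, Mpc2 and Angptl8 under the older symbols Brp44l, Brp44 and Gm6484, and 143 could be compared. Of these, 13 were male-higher and 11 female-higher, or 16.8%, close to the 17.4% called among all compared genes, and their median log2 ratio was 0.07. Among all compared genes, 7.21% were male-higher and 10.2% female-higher, and the counts per list below were not tested against these shares.

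Enzymes and carriers that supply acetyl-CoA and NADPH moved in both directions: of 25 compared, 3 were higher in males and 3 in females, with a median log2 ratio of 0.09. H6pd, the hexose-6-phosphate dehydrogenase of the endoplasmic reticulum, had 81.6 RPKM in male and 51.8 RPKM in female liver (1.64-fold, adjusted p = 0.000164, authors' deposited table). Aacs and Acss2, which activate acetoacetate and acetate in the cytosol, were male-higher by 1.43-fold (adjusted p = 0.0136) and 1.36-fold (adjusted p = 0.0233) as the authors' deposited table has it. The female-higher genes were Idh2, the mitochondrial NADP-dependent isocitrate dehydrogenase, with 37.9 RPKM in male and 58.3 RPKM in female liver (1.64-fold, adjusted p = 0.000308, authors' deposited table), and the subunits of the mitochondrial pyruvate carrier. Of those subunits, Brp44 (now Mpc2) had 152 RPKM in male and 243 RPKM in female liver (1.65-fold, adjusted p = 0.000189) and Brp44l (now Mpc1) 29.3 RPKM in male and 43.8 RPKM in female liver (1.54-fold, adjusted p = 0.00381), again from the authors' deposited table. Cytosolic NADPH sources other than Me1 were not called: Idh1 stood at 265 RPKM in male and 246 RPKM in female liver, and Pgd at 16.4 and 15.4 RPKM. G6pdx, at 1.05 RPKM in male and 1.53 RPKM in female liver, lay under log2 RPKM 1 in both sexes. Its fold of 1.45 toward females (adjusted p = 0.294, authors' deposited table) rests on these low levels.

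The lists upstream of the transcription factors held few called genes. None of 11 compared genes of SREBP processing was called, with ratios from -0.081 to 0.274. The best expressed were Insig2 (190 RPKM in male and 179 RPKM in female liver) and Insig1 (105 RPKM in male and 83.1 RPKM in female liver), which retain SREBP in the endoplasmic reticulum. Of 14 genes for the partner of ChREBP and for sugar supply, none was called either, with ratios from -0.159 to 0.298. G6pc, the glucose-6-phosphatase that releases glucose, had 193 RPKM in male and 200 RPKM in female liver. Since no ratio that small was called among the 13762 compared genes, these counts of 0 speak of ratios under about 0.37 on the log2 scale and not of equality. The table carries adjusted p-values alone, so a count at an unadjusted threshold cannot be stated. Of 22 insulin signalling genes, 1 was called, Irs1, an insulin receptor substrate, with 8.54 RPKM in male and 13.3 RPKM in female liver (1.54-fold toward females, adjusted p = 0.00241, authors' deposited table).

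Of 27 factors known at lipogenic promoters, 3 were male-higher and 1 female-higher, with a median of 0.087. Bhlhe41, a repressor of the clock system, was 14.25-fold higher in males (adjusted p = 1.59e-09), Bcl6, a repressor, 2.2-fold (adjusted p = 2.11e-07) and Cebpb 1.48-fold (adjusted p = 0.00554), and Sik1, a kinase, was 1.49-fold higher in females (adjusted p = 0.0207), all by the authors' deposited table. Bhlhe41 had 2.88 RPKM in male and 0.239 RPKM in female liver. The female level lies under the bound for liver-expressed genes, so the size of this fold rests on a low level in 1 sex. Of 14 genes around AMPK, the kinase that restrains acetyl-CoA carboxylase, 2 were called each way, and its catalytic subunit genes Prkaa1 (adjusted p = 0.69) and Prkaa2 (adjusted p = 0.0779, authors' deposited table) were not called. Trib3 and Trib1, pseudokinases of which Trib3 is known in fat tissue to direct the breakdown of acetyl-CoA carboxylase, were male-higher by 1.67-fold (adjusted p = 0.0376) and 1.56-fold (adjusted p = 0.00155, authors' deposited table). Camkk2, a kinase that activates AMPK, and Prkab1, an AMPK subunit gene, were female-higher by 1.82-fold (adjusted p = 0.00021) and 1.37-fold (adjusted p = 0.0438, same authors' deposited table). Of 9 genes that load the synthetic enzymes with their cofactors or make fatty acids in mitochondria, 2 were female-higher, Mecr (1.42-fold, adjusted p = 0.0222) and Btd, biotinidase (1.42-fold, adjusted p = 0.0126, authors' deposited table).

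Further targets of SREBP-1 and ChREBP held 21 compared genes, 5 of them higher in males and 2 in females, and their median log2 ratio of 0.20 was the highest of the 8 lists. Scd1, the stearoyl-CoA desaturase, had 1422 RPKM in male and 843 RPKM in female liver (1.54-fold, adjusted p = 0.000788, authors' deposited table). Aldoc, an aldolase, was 2.23-fold higher in males (adjusted p = 1.23e-05), followed by Lpin2 with 1.5-fold (adjusted p = 0.0024), Gpam, the first enzyme of glycerolipid synthesis, with 1.44-fold (adjusted p = 0.0051), and Pltp with 1.42-fold (adjusted p = 0.0341), by the authors' deposited table. The female-higher ones were Gm6484 (now Angptl8), a feeding-induced regulator of lipoprotein lipase, with 33.8 RPKM in male and 47.0 RPKM in female liver (1.48-fold, adjusted p = 0.00699, authors' deposited table), and Fads1 (1.35-fold, adjusted p = 0.0205, authors' deposited table). Elovl6, which lengthens palmitate, stood at 21.8 RPKM in male and 21.0 RPKM in female liver and was not called. Aacs, Acss2, Gpam, Pltp and Fads1 were named after their values were seen.

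**Figure D3:**
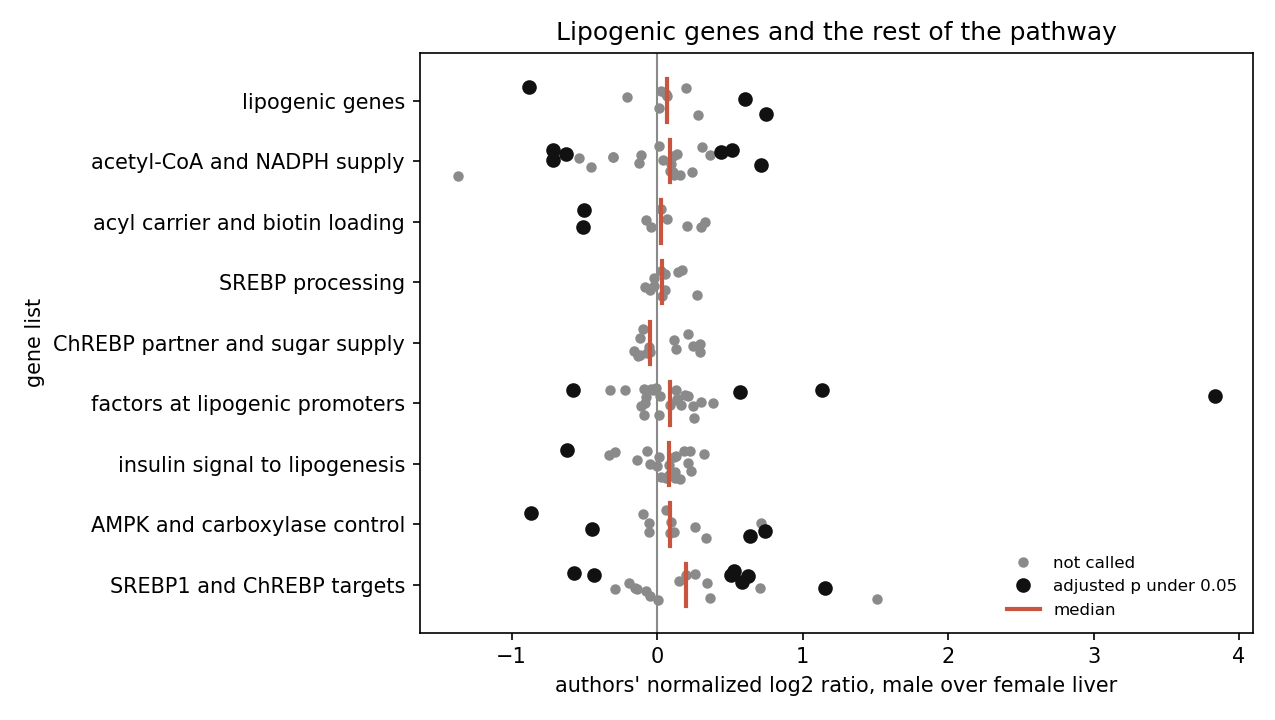
Authors' normalized log2 ratio, male over female, of the 10 lipogenic genes (top row) and of 8 lists of further pathway genes; black points passed an adjusted p of 0.05, grey points did not, and the red line is the median of a row. Medians lie between -0.05 for the ChREBP partner and sugar supply and 0.20 for SREBP-1 and ChREBP targets; the farthest point is Bhlhe41 at 3.83.

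The deposited table holds a second reading of the sex difference, the plain difference of the 2 log2 RPKM values. For 9 of the 10 lipogenic genes it lay over 0.1 above the normalized ratio, a gap that 5.47% of 9733 liver-expressed genes had. The gap was largest for Pnpla3 (0.18) and Thrsp (0.18), and smallest for Slc25a1 (0.03), the exception, while the median was 0.12 over the 10 genes and 0.03 over the liver-expressed ones. Every sign was the same by both readings, but sizes moved: Me1 was 1.84-fold and Thrsp 1.72-fold higher in male liver by the plain difference, and Pnpla3 was 1.63-fold higher in female liver. Fasn and Acaca came to 1.28-fold and 1.32-fold toward males. Among the liver-expressed genes of the 8 further lists, those with a gap over 0.1 were Pltp (0.19), Acss2 (0.18), Insig1 (0.17), Aacs (0.165), Elovl6 (0.13), Scd1 (0.13), Rptor (0.11) and Pdhb (0.105). They were 3 of 21 genes of acetyl-CoA and NADPH supply, 3 of 19 further targets, 1 of 11 in SREBP processing and 1 of 22 in insulin signalling. The lists for ChREBP and sugar, promoter factors, AMPK and cofactor loading held 0 of 14, 0 of 27, 0 of 12 and 0 of 9. These few genes stand beside the 5.47% of all liver-expressed genes. The sources used here do not state how the authors normalized the ratio, and what sets the gap was not tested.

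**Figure D4:**
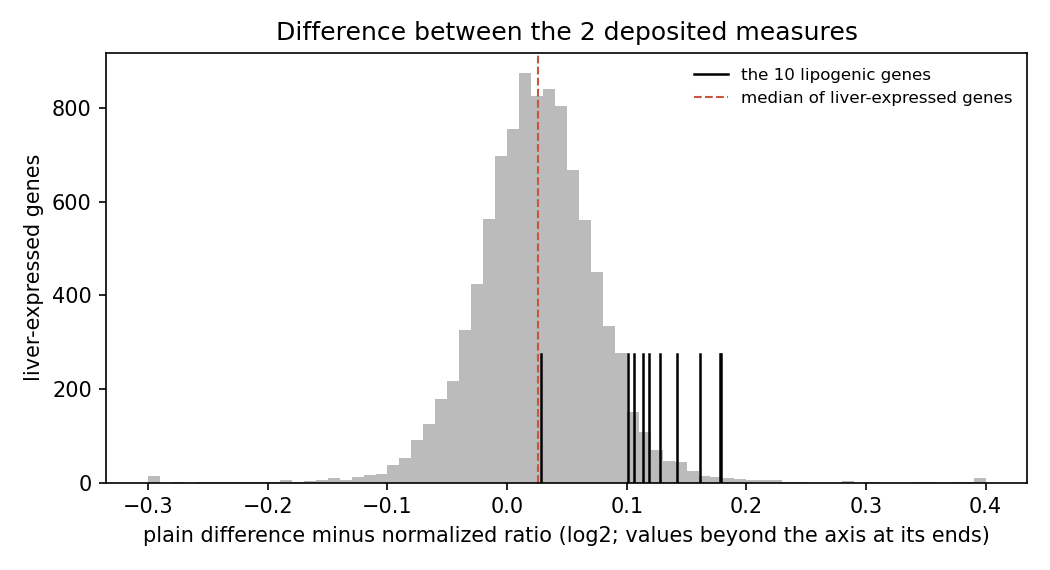
Plain difference of log2 RPKM minus the authors' normalized log2 ratio, male over female, as a histogram over 9733 liver-expressed genes (grey) with the 10 lipogenic genes as black ticks. The dashed line is the median of 0.03; 9 ticks lie between 0.10 and 0.18, in the right tail, and Slc25a1 lies near the median.

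The tissue was checked with marker genes. Hepatocyte markers were abundant in both sexes, with Alb at 14.82 log2 RPKM in male and 15.52 log2 RPKM in female liver, and 1 of 10 was called each way. Alb itself was the female-higher one (1.62-fold, adjusted p = 0.000181) and Apoa1 the male-higher one (1.49-fold, adjusted p = 0.00214, authors' deposited table). Of 10 adipocyte markers, Plin1, Lep and Retn were at the floor in both sexes, and Adipoq (0.0722 RPKM in male and 0.165 RPKM in female liver) and Cfd (0.289 RPKM in male and 0.0736 RPKM in female liver) were above it in a single sex. Adrb3 had 3.21 RPKM in male and 0.923 RPKM in female liver (3.37-fold toward males, adjusted p = 4.29e-07, authors' deposited table), and Fabp4 had 7.27 RPKM in male and 18.4 RPKM in female liver (2.45-fold toward females, adjusted p = 3.92e-05, authors' deposited table). The 10 adipocyte markers summed to 2140 RPKM in male and 1689 RPKM in female liver, nearly all of it Car3, which hepatocytes also express. Of 6 pancreatic acinar markers found, 4 were male-higher, Cpa1, Pnlip, Ctrb1 and Cela2a, by 8.34-fold to 31.25-fold in the authors' deposited table, and the 6 summed to 56.7 RPKM in male and 32.2 RPKM in female liver. All 4 lay under log2 RPKM 1 in female liver, with Cpa1 at 0.129 RPKM, so these folds rest on low female levels. Most of both sums was Cela1, which had 38.9 RPKM in male and 30.5 RPKM in female liver and was not called. Female-higher were 4 of 7 Kupffer cell markers (sums of 161 RPKM in male and 205 RPKM in female liver) and 4 of 6 stellate cell markers (sums of 98.0 RPKM in male and 139 RPKM in female liver). Of all compared genes, 7.21% were male-higher and 10.2% female-higher. The part of these cells in the differences of Me1, Thrsp and Pnpla3 was not tested.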

How the data were processed

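The table used here is the authors' deposited gene table. Per the file headers, it holds log2 RPKM per sex, a normalized log2 ratio (male over female), its linear ratio, a signed fold change (a score, negative where female liver is higher), an adjusted p-value and a flag for liver-expressed genes. The authors used Bowtie, edgeR and mm9, which the submitters' processing notes name with no version or role; the sources used here do not say how reads were counted or p-values adjusted. How the 2 pools of a sex enter a value is not stated there. No test was run anew, since pools are not separated: genes were called at the authors' deposited adjusted p under 0.05 (the header's own cut is 0.01). Entries at the floor in both sexes (6590, each with a log2 ratio of 0 and an adjusted p of 0.026 in the authors' deposited table), in 1 sex with a ratio of 1 (1460) or with no level (15) were left out, leaving 13762. Taking the floor as 1 read and transcript lengths from GENCODE vM21, it implied 11239946 reads for male and 14717080 for female liver; 74.2% of 4668 floor genes had a length within 2%. Reads per kilobase follow from these depths.

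The 10 genes and all lists were chosen with earlier results of these data known. Named were the 10 genes, up to 4 called genes per list by size of ratio (with none called, the 2 of highest level) and the loci beside each gene, of which 1 list gene is not reported here; 4 marker lists not described in the text (bile duct, endothelium, mammary gland, blood) are summarised under the other observations. Coordinates are those of the table, with a 1-based start. Not found by symbol, and not analysed here, were 11 pathway genes. Python 3.11.15, pandas 2.3.3, numpy 2.4.6 and matplotlib 3.10.9 were used.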

Additional observations from a re-analysis of the deposited data

How the results depend on the processing

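The 3 calls (2 male-higher, 1 female-higher) held at an adjusted p under 0.01 and with the direction taken from the plain difference of levels. Centring the ratio on the median of liver-expressed genes (-0.004) was too small a shift to change the direction of a call. All 10 genes are liver-expressed, so keeping liver-expressed genes alone could not change the calls either. With a minimum of 2-fold, 0 male-higher and 0 female-higher genes were left of the 10. Of the further pathway genes, 3 male-higher and 0 female-higher were left, against 13 and 11. The share of all compared genes called at 2-fold or at 0.01 was not computed, so counts at these cuts have no background beside them. At an adjusted p under 0.01 the further pathway genes called numbered 9 male-higher and 6 female-higher. The median log2 ratio of the 10 genes was 0.07, against 0.17 by the plain difference and 0.16 as a difference of log2(RPKM + 1). No sign of a single gene turned under the 30 alternatives run. In 15 of them its log2 ratio moved by over 0.1, and for Pnpla3 it came to -0.49 with 1 RPKM added, against -0.88. All of these moves came with the plain difference or with 1 RPKM added. Centring on -0.004 could neither move a ratio that far nor turn a sign of the 10 genes. Leaving out a pool could not be run for the same reason that pairing could not: male and female liver have 1 value each. No paired analysis was possible because the table gives no value per pool. Among the 10, reads per kilobase were fewest for Pnpla3.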

Other observations

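The entries beside the 10 loci were compared with them. Of 20 nearest neighbours (1 on each side), 13 could be compared and 2 were called, both female-higher: Ung beside Acacb (1.76-fold, adjusted p = 0.0119) and Pemt, an enzyme of phosphatidylcholine synthesis, on the far side of Rai1 from Srebf1 (1.33-fold, adjusted p = 0.033), by the authors' deposited table. Among all compared genes 17.4% were called, and 10.2% were female-higher. Of the 6 neighbours beside the 3 called genes only 2 could be compared, none of them beside Me1, and neither was called. Samm50, 2712 bases from Pnpla3, had 5.19 log2 RPKM in male and 5.08 log2 RPKM in female liver, and Ndufc2, 5157 bases from Thrsp, had 5.31 log2 RPKM in male and 5.52 log2 RPKM in female liver. Pnpla5, the lipase gene on the other side of Pnpla3, lay at -4.25 log2 RPKM in male and -3.06 log2 RPKM in female liver, above the floor in 1 sex only. Of the 10 genes, 4 lie on chromosome 11, which holds 7.88% of all entries.

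The plain difference exceeded the normalized ratio by over 0.1 in 5.53% of liver-expressed genes at a mean log2 RPKM between 1 and 3, 4.78% between 3 and 5, 5.46% between 5 and 7, and 3.13% above 7.

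Of the other marker lists, bile duct cells and blood cells had 1 gene called each way of 6, and sinusoidal endothelium had 1 female-higher gene of 6. Among all compared genes, 7.21% were male-higher and 10.2% female-higher. The blood genes called were Alas2, 6.67-fold toward males (adjusted p = 2.59e-38), and Ptprc, 1.45-fold toward females (adjusted p = 0.0164), by the authors' deposited table. Hbb-b1 and Hba-a1 were not called. All 4 mammary genes were at the floor in at least 1 sex.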
